A study of Rattus norvegicus with 5 samples.

Results

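The genes described here code for 10 contractile and structural proteins of smooth muscle: *Acta2*, *Actg2*, *Myh11*, *Tagln*, *Cnn1*, *Des*, *Cald1*, *Tpm1*, *Tpm2* and *Mylk*. Every gene probe (Affymetrix probe set) annotated to 1 of these names was taken, whatever its signal, although the genes themselves were picked with earlier results of these data known. The array holds 15866 gene probes, of which 12783 carry 1 gene name each and stand for 10411 named genes. Of the 15866, 17 carried the name of 1 member alone and 3 carried the names of *Acta2* and *Actc1* (cardiac actin) together. The filter on weak signals kept 14 of the 17, with at least 1 gene probe for each of the 10 genes, and none of the 3 shared ones.

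Small intestine was taken from male Wistar rats, bought at 5 weeks of age, housed singly and fed a purified powdered diet (AIN-93G). Daily intake was first recorded under ad libitum feeding. The control group then received all of that intake, and the other groups received 5, 10, 20 or 30% less of the same food (calorie restriction, CR) for 1 month. All rats were dissected after a 16 h fast. RNA of 5 rats per group was pooled and each pool was read on 1 Affymetrix rat 230A array, so that each group is 1 sample, no level has a replicate and the spread between rats was not measured. The values are MAS5 signals, a linear measure of brightness per gene probe that the authors scaled to the same trimmed mean of 132 on every array. Array medians lay between 44.9 and 49, and correlations between arrays over gene probes lay between 0.931 and 0.952. Beta-actin probes at the 3' end read 3.18 times as bright as those at the 5' end on the array at 20% CR. On the others this ratio, which rises as RNA is degraded, was 2.20 to 2.41. The same ratio for *Gapdh* was 1.40 in the control pool and 1.32, 1.37, 1.27 and 1.21 at 5, 10, 20 and 30% CR. By *Gapdh* the array at 20% CR thus did not stand out. It did have the lowest median (44.9), and its closest correlation with another array, 0.937, was below that of every other array. It was also the lowest array for 28.8% of all kept gene probes. The part of RNA quality in the member signals was not tested.

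The wall of the small intestine holds an inner circular and an outer longitudinal layer of smooth muscle, and a thin muscle layer lies under the mucosa. In these cells a rise in calcium activates myosin light chain kinase, which phosphorylates the light chains of myosin and lets its heads pull on actin filaments. Tropomyosin, caldesmon and calponin lie along the thin filaments, and desmin filaments tie the contractile units to each other and to the cell membrane. Many of the genes are switched on together by serum response factor (SRF) and its partner myocardin, which act through a short promoter motif, the CArG box.

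As a check of the label, the genes that define smooth muscle were read well above the filter, which stood at a mean log2 signal of 5.54 (a signal of 46.5). Signals of *Myh11*, *Actg2* and *Cnn1*, whose products mark differentiated smooth muscle, lay between 540.4 and 3056.5 on all 5 arrays. Most genes of striated muscle were below the filter: of 15 listed, 14 were on the array and 3 (*Acta1*, *Myh1* and *Ckm*) were kept. Myoglobin (*Mb*) lay between 0.8 and 4.7 and the slow myosin heavy chain *Myh7* between 1.0 and 2.7. The gene probe annotated to *Myh1*, a fast myosin heavy chain, stands against this with signals from 1283.9 to 1609.9. Whole intestine holds many cell types, and fewer muscle cells and less RNA per muscle cell cannot be told apart in such pools. Interstitial cells of Cajal, the pacemaker cells beside the muscle, had 1 of 4 listed genes measured (*Gja1*), and *Kit*, their defining receptor, lay between 3.9 and 17.5, below the filter.

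The SRF motif was searched in the RefSeq promoter windows (build GRCr8, 250 bases before to 50 bases after the start of each transcript, both strands). A CArG box has 2 C, then 6 bases that are each A or T, then 2 G, and a CArG-like motif was counted where 1 of the 6 middle bases may differ. Windows were given for 8 members (9 windows, with 2 for *Cald1*), and none for *Myh11* and *Tagln*. No member window held an exact CArG box, against 1.64% of all 33469 windows. Smooth muscle actin, *Acta2*, was the 1 member with CArG-like motifs, and it had 2, 134 and 84 bases before the start, where 9.42% of all windows held at least 1 and 0.846% held 2 or more. Its window is shown because its transcript is the standard marker of these cells and because it alone held such motifs. A link between the motifs and the member signals was not tested. It lies at chr1:241172454-241172753 on the minus strand, and capitals mark both motifs.
Acta2 promoter: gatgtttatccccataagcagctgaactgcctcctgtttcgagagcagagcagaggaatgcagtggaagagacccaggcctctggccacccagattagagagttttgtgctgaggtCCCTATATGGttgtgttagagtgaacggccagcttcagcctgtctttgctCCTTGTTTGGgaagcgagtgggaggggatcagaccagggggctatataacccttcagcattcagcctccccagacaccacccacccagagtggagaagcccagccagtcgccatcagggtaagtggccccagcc
A match is a description of the letters, and a window without one says nothing of the factor, whose sites can lie elsewhere.

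Most members moved alike from array to array, with the brightest gene probe of *Cald1* the main exception, but neither test called any member. Over the 10 genes, each by its brightest gene probe, the median log2 ratio to the control array was −0.31 at 5% CR, 0.13 at 10%, −0.17 at 20% and −0.27 at 30%, or 80.5, 109.5, 88.9 and 83.0% of the control signal. The median over all 7933 kept gene probes was 0.005, 0.006, −0.03 and 0.001, and the SD over those gene probes was 0.30, 0.29, 0.32 and 0.34. Below the control were 9 of 10 members at 5% CR (49.0% of all kept gene probes), 2 at 10% (48.8%), 8 at 20% (54.4%) and 9 at 30% (49.8%). The exceptions at 5 and 30% CR were both *Cald1*. The mean of the 4 CR pools lay below the control for all 10 (50.9% of all kept gene probes), from −0.39 to −0.07 with a median of −0.15. The same control array stands in every ratio, so a signal that was high in that pool alone would lower all 4. That pool stood apart in genes of the exocrine pancreas, of which 8 of 9 were higher in it than in every CR pool. The summed signal of these 9 was 874 in the control pool and 384.5, 313, 295 and 272 at 5, 10, 20 and 30% CR, and its part in the member ratios was not tested.

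**Figure D1:**
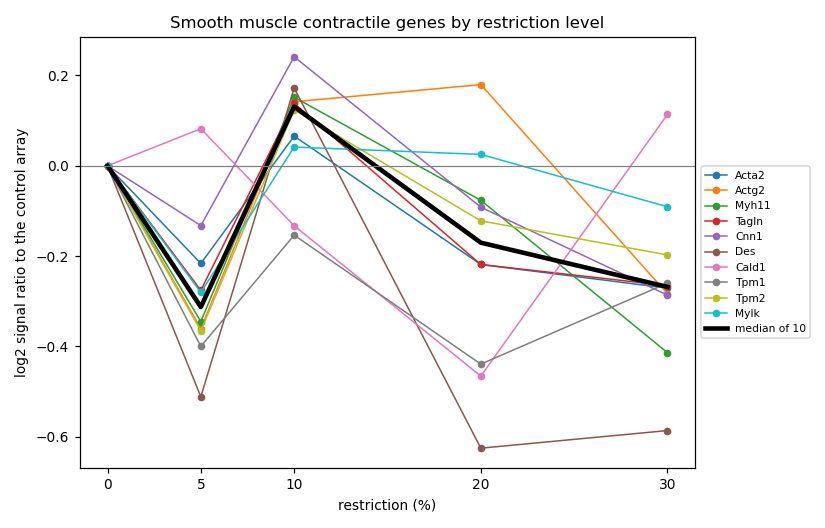
Log2 ratio of the signal to the control array (vertical axis) for the brightest gene probe of each of the 10 members against the restriction in percent (horizontal axis, control at 0); each line is 1 gene and the black line is their median. The median lies at −0.31, 0.13, −0.17 and −0.27 at 5, 10, 20 and 30% CR, and *Cald1* is opposite in sign to the median at 5, 10 and 30% CR, *Tpm1* at 10%, and *Actg2* and *Mylk* at 20%.

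The shape shared by most members was a low signal at 5% CR, a high one at 10% and lower ones at 20 and 30%. The signs of this course are below the control at 5, 20 and 30% CR and above it at 10%. Exactly these signs were seen for 6 of 10 members (*Acta2*, *Myh11*, *Tagln*, *Cnn1*, *Des* and *Tpm2*) and for 6.4% of all kept gene probes. They are the signs of the members' own median, so a high count among the members is partly built in and is no test. The step from 5 to 10% CR, which does not involve the control array, was upward in 9 of 10 members (50.7% of all kept gene probes) with a median of 0.39. From 10 to 30% CR, 9 of 10 were lower (51.6%), with a median of −0.37. The pools at 5 and 30% CR differed little, with a median difference of 0.02, 6 members higher and 4 lower at 30%. The array at 10% CR was the brightest for 7 of 10 members, against 20.6% of all kept gene probes. The lowest array was 5% CR for 4 members (14.4% of all kept gene probes), 20% for 3 (28.8%) and 30% for 3 (21.1%). Since 1 pool stands behind each array, a level and its pool cannot be told apart.

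**Figure D2:**
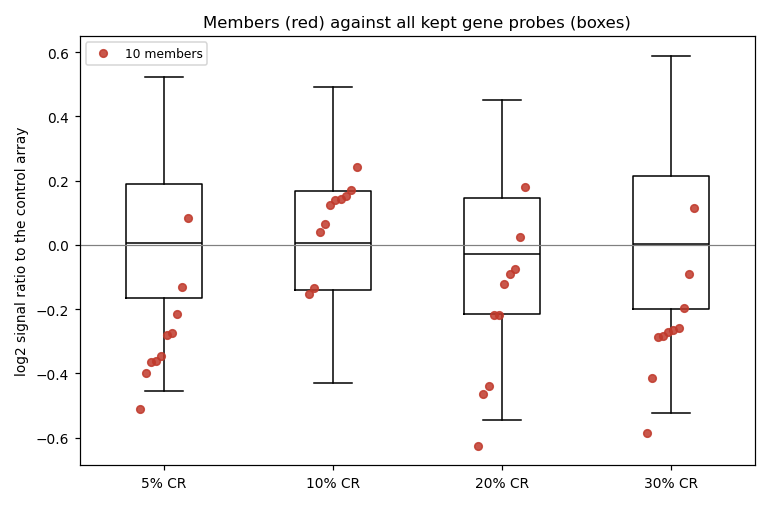
Log2 ratio to the control array (vertical axis) at each CR level (horizontal axis) for the 10 members (red points, side shifts only separate them) and for all 7933 kept gene probes (boxes from the 25th to the 75th percentile with the median, whiskers from the 5th to the 95th). Most members sit below the box median at 5, 20 and 30% CR, and 8 of 10 lie above the control at 10%.

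The thick filament was represented by *Myh11*, the smooth muscle myosin heavy chain. Its signal was 1493.7 in the control pool and 1176.1, 1659.4, 1416.7 and 1121.3 at 5, 10, 20 and 30% CR. It was lowest at 30%, highest at 10%, and the CR signals lay on both sides of the control. The log2 ratios were −0.34, 0.15, −0.08 and −0.41, with a mean of −0.17 (SD 0.26 over the 4 levels), and in the limma comparison of the 4 CR pools with the control pool the difference was −0.17 with a SE of 0.20. *Myh9*, a non-muscle myosin heavy chain of the same family, gave ratios of 0.16, 0.38, 0.22 and −0.10. The ratio of *Myh11* lay below that of *Myh9* at 4 of 4 levels, by −0.50, −0.23, −0.29 and −0.32 (mean −0.34, SD 0.12), as a description without a test.

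The actins of the thin filament were *Acta2* and *Actg2*, the latter being the actin of visceral smooth muscle. *Acta2* had signals of 1277.7 in the control pool and 1099.9, 1337.2, 1098.1 and 1059.0 in order of restriction, thus close to the control at 10% and lower elsewhere (log2 ratios −0.22, 0.07, −0.22 and −0.27, SE of the mean difference 0.16). For *Actg2* the signals were 2698.5 in the control pool and 2102.3, 2976.9, 3056.5 and 2217.4. Unlike most members, *Actg2* was above the control at 20% as well as at 10% CR. Its log2 ratios were −0.36, 0.14, 0.18 and −0.28, with a mean of −0.08 (SE 0.21). The 3 gene probes that *Acta2* shares with *Actc1* were too dim to be kept, and the brightest of them read 46.4, 25.6, 39.2, 42.9 and 39.7. The cytoplasmic gamma actin *Actg1*, which every cell uses, had ratios of 0.02, 0.05, −0.12 and 0.14, and *Actg2* lay below it at 2 of 4 levels.

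**Figure D3:**
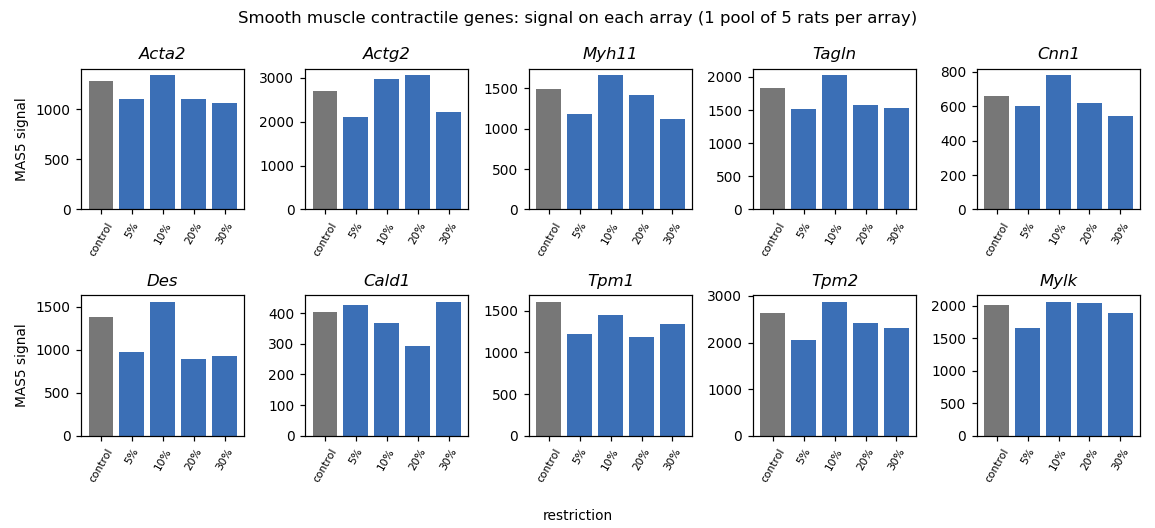
MAS5 signal (vertical axis, linear, from 0, with its own scale in each panel) of the brightest gene probe of each of the 10 members on the control array (grey) and the 4 CR arrays (blue), 1 pool of 5 rats per bar and hence no error bars. The bar at 10% CR is the tallest for 7 members, and *Des* lies between 897.4 and 971.0 at 5, 20 and 30% CR against 1384.1 in the control pool.

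The actin-binding proteins *Tagln* (transgelin, or SM22) and *Cnn1* (basic calponin, an inhibitor of the myosin motor) both had the signs of the common course. *Tagln* read 1838.9 in the control pool and 1519.0, 2023.8, 1580.5 and 1530.0 at 5, 10, 20 and 30% CR. These are ratios of −0.28, 0.14, −0.22 and −0.27 (mean −0.16, SD 0.20, SE 0.17). *Cnn1* read 659.0 in the control pool and 601.2, 779.0, 618.4 and 540.4, with ratios of −0.13, 0.24, −0.09 and −0.29. At 0.24 it had the highest ratio of the 10 members at 10% CR. Its mean, −0.07 (SE 0.19), was the closest to 0 of all 10, and without the 30% pool it came to 0.01.

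Caldesmon, an actin-binding protein that restrains the myosin motor, was read by 3 gene probes that did not agree. The brightest, 1371969_at, had signals of 404.7 in the control pool and 428.4, 369.1, 293.1 and 437.9 at 5, 10, 20 and 30% CR. The other kept one, 1368824_at, had 288.4 in the control pool and 134.4, 189.4, 142.5 and 121.7. Thus 1371969_at lay near the control except at 20% CR, while 1368824_at was lower than the control at every level. Among the CR arrays 1368824_at was brightest at 10%, as most members were, with a log2 step of 0.49 from 5 to 10% CR. The brightest gene probe, 1371969_at, had a step of −0.21.

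The log2 ratios of *Cald1* were 0.08, −0.13, −0.47 and 0.11 by 1371969_at and −1.10, −0.61, −1.02 and −1.24 by 1368824_at, so that both had the same sign at 2 of 4 levels. The gap between both ratios was −1.18, −0.47, −0.55 and −1.36, and over the 5 arrays their relation changed by up to 2.56-fold. The third, 1368823_at, lay between 1.4 and 15.5 and was below the filter. By 1368824_at the mean of the CR pools was 50.3% of the control (log2 −0.99, SD 0.27), and limma gave a difference of −0.99 with a SE of 0.23, an adjusted p of 0.509 and an unadjusted p of 0.0018. It was the only member gene probe lower by at least 0.5 at all 4 levels, as were 27 of all kept gene probes (0.34%). *Cald1* has long and short forms, the long one being typical of smooth muscle, and which form each gene probe reads was not analysed here.

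**Figure D4:**
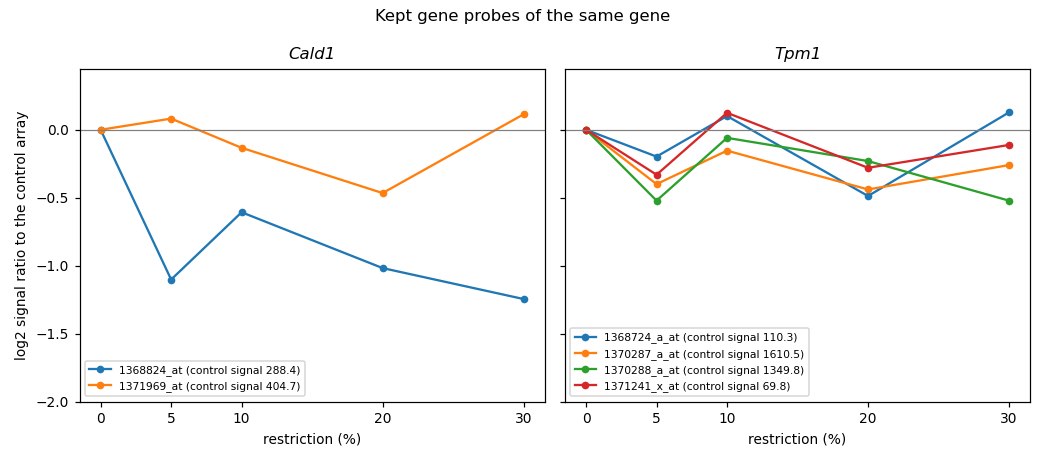
Log2 ratio to the control array (vertical axis) against restriction in percent (horizontal axis) for the kept gene probes of *Cald1* (left, 2 lines) and *Tpm1* (right, 4 lines), each line 1 gene probe with its control signal in the legend. The *Cald1* lines are apart by 1.36 at 30% CR, and no pair of *Tpm1* lines changed its gap by more than 0.91 over the arrays.

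The tropomyosins *Tpm1* and *Tpm2* form coiled strands along the actin filament. *Tpm1* was read by 6 gene probes, of which 4 were kept and 2 (1370513_at and 1371240_at, with signals from 0.8 to 15.9) were not. By the brightest, 1370287_a_at, the signal was 1610.5 in the control pool and 1220.8, 1447.9, 1188.0 and 1345.2 at 5, 10, 20 and 30% CR. By 1370288_a_at it was 1349.8 and then 940.5, 1295.2, 1150.7 and 940.6. On both, every CR array was below the control array, and the array at 10% CR was the closest to it.

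The *Tpm1* ratios were −0.40, −0.15, −0.44 and −0.26 by 1370287_a_at (mean −0.31, SD 0.13, SE 0.15) and −0.52, −0.06, −0.23 and −0.52 by 1370288_a_at (mean −0.33, SD 0.23, SE 0.19). The dimmer 1368724_a_at, with a control signal of 110.3, gave −0.20, 0.10, −0.49 and 0.13. The dimmest kept one, 1371241_x_at, with a control signal of 69.8, gave −0.33, 0.12, −0.28 and −0.11. All 4 were thus below the control at 5 and 20% CR, and they differed in sign at 10 and 30%. Over the 6 pairs the gap between ratios changed by 0.28 to 0.91 on the log2 scale over the arrays.

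*Tpm2*, with 1 gene probe, read 2641.0 in the control pool and 2050.1, 2877.6, 2427.0 and 2303.4 (ratios −0.37, 0.12, −0.12 and −0.20, mean −0.14, SE 0.18). It was lowest at 5% and highest at 10% CR. *Tpm4*, a tropomyosin of non-muscle cells, varied less, with signals between 676.7 and 726.3. The brightest gene probe of *Tpm1* lay below *Tpm4* in ratio at 4 of 4 levels (mean −0.31, SD 0.14), and *Tpm2* did at 3 of 4 (mean −0.13, SD 0.21). Against *Tpm3*, which has muscle and non-muscle forms, the mean differences were −0.11 for *Tpm1* (lower at 3 of 4 levels) and 0.06 for *Tpm2* (lower at 2 of 4).

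*Des*, which codes for the muscle intermediate filament protein desmin, had the largest mean difference among the 10 brightest gene probes. Its signals were 1384.1 in the control pool and 971.0, 1559.6, 897.4 and 922.0 at 5, 10, 20 and 30% CR. Of the 4 CR pools, 3 lay at 64.8 to 70.2% of the control and the pool at 10% at 112.7%. The log2 ratios were −0.51, 0.17, −0.63 and −0.59, with a mean of −0.39 (SD 0.38), and limma gave a SE of 0.26 with an adjusted p of 0.988 (unadjusted 0.172). Over the restriction percent its slope was −0.19 per 10% (SE 0.09, adjusted p 0.998, unadjusted 0.0648). *Vim*, which codes for vimentin, the intermediate filament protein of mesenchymal cells, gave 0.28, 0.65, 0.17 and 0.68 and was thus above the control at all 4 levels (mean 0.44, SE 0.20, adjusted p 0.988 in limma).

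*Mylk*, the gene of the kinase that starts contraction, varied least around the control. It read 2008.8 in the control pool and 1654.1, 2067.4, 2044.2 and 1886.4 at 5, 10, 20 and 30% CR. The array at 5% stood apart with a log2 ratio of −0.28, and the others gave 0.04, 0.03 and −0.09 (mean −0.08, SD 0.15, SE 0.15). The signs at 10 and 20% CR depend on the scaling: median centring gave −0.02 at 10%, and quantile normalization gave −0.12 at 20%. No other brightest gene probe of a member changed sign at any level under either scaling. The same gene also codes for telokin and a long non-muscle form, which 1 gene probe cannot separate.

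Tests over all 7933 kept gene probes gave no calls. In the comparison of the CR pools with the control pool (limma, Benjamini-Hochberg, 3 residual degrees of freedom), 0 of 14 member gene probes and 0.0% of all kept gene probes had an adjusted p below 0.05. Adjusted p of the members ran from 0.509 to 0.992. All 14 differences were negative, with a median of −0.15 beside −0.01 over all kept gene probes. With 14 member gene probes, 1 had an unadjusted p below 0.05 (*Cald1* 1368824_at), against 4.76% of all kept gene probes. Without the pool at 10% CR the difference was −0.57 for *Des* and −1.12 for that gene probe of *Cald1*. For *Tpm1* it was then −0.37 by 1370287_a_at and −0.42 by 1370288_a_at, while *Cald1* 1371969_at stayed at −0.09. Signs of the smallest differences rest on single pools: without the pool at 20% CR, *Cald1* 1371969_at came to 0.02 and *Tpm1* 1368724_a_at to 0.01, and without the pool at 5%, *Actg2* came to 0.01.

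The linear trend over the restriction percent (limma) also called 0 of 14 and 0.0% of all kept gene probes. Adjusted p lay between 0.998 and 0.999 for the members. Of the slopes, 12 of 14 were negative, and 1 of 14 had an unadjusted p below 0.05, again *Cald1* 1368824_at (slope −0.30 per 10%, SE 0.11), beside 3.09% of all kept gene probes. Without the pool at 5% CR the slopes of *Des* (−0.26), *Tpm1* 1370288_a_at (−0.17) and *Myh11* (−0.15) were steeper, while that of *Cald1* 1371969_at came to 0.0009. Without the control pool the slope of *Cald1* 1368824_at came to −0.13. Without the pool at 30% CR the slope of the other gene probe of *Cald1*, 1371969_at, came to −0.26. The slopes of *Actg2* (0.16), *Myh11* (0.03) and *Tpm2* (0.01) were then positive. Slopes near 0 changed sign without other pools too, among them *Tpm1* 1370287_a_at (0.01 without the control pool) and *Cald1* 1371969_at (0.03 without the pool at 20%). Since 7 of the 10 members were brightest at 10% CR, their signals did not run in 1 direction over the restriction percent, and no other shape was tested.

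By size alone, member gene probes at least 0.5 (log2) under the control array were 3 of 14 at 5% CR (*Des*, *Cald1* 1368824_at and *Tpm1* 1370288_a_at), where 3.84% of all kept gene probes were. At 10% CR it was 1 (3.45%), at 20% CR 2 (6.15%) and at 30% CR 3 (5.61%), and 0 members were higher by as much at any level. Members read by several gene probes supply several of these counts, so they are not independent.

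The likeness of each member to the common course was measured as the root mean square difference, over the 5 arrays, between its centred log2 signals and the median of the 10. That median stood at 0.12 for the control pool and, in order of restriction, at −0.18, 0.22, −0.06 and −0.14. The members entered that median themselves, so their nearness is partly built in. *Tagln* was nearest at 0.026, followed by *Acta2* (0.043), *Tpm2* (0.050), *Cnn1* (0.075) and *Myh11* (0.089). *Cald1* (0.29, by 1371969_at) and *Des* (0.19) were farthest, and the median of all kept gene probes was 0.21. Of all other named genes the 8 most alike over the 5 arrays were *Mrpl17* (0.027), *Nek9* (0.028), *Pfkm*, *Lamtor3*, *Ncaph2*, *Akap17a*, *Glcci1* and *Eed* (0.043). None of the 8 is in a gene list used here.

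Among 34 listed partners of the contractile apparatus (light chains, non-muscle relatives, adhesion and Z-disc-like proteins), 27 were measured, and limma called 0 of them in either direction in either fit (0 at an unadjusted p below 0.05 in both). The mean of the CR pools was above the control for 10 and below it for 17. Their median ratios were −0.09, 0.07, −0.10 and −0.17 at 5, 10, 20 and 30% CR, the same signs as those of the members. The signs of the common course were shown by 7 of the 27 (*Myl9*, *Flna*, *Csrp1*, *Pdlim3*, *Pdlim7*, *Tln1* and *Zyx*), beside 6.4% of all kept gene probes. In the cell type lists they were shown by 2 of 4 measured endothelial and pericyte genes (*Kdr* and *Rgs5*). Of 12 fibroblast genes 2 showed them (*Col6a1* and *Pdgfra*), as did *Gja1* of the Cajal list and *Cela1* of the pancreas list. Of 16 enterocyte genes, 0 did. *Myl9*, the regulatory light chain that *Mylk* phosphorylates, is named here after its values were seen, and read 1965.3 in the control pool and 1544.1, 2147.5, 1569.1 and 1447.0. Its ratios, −0.35, 0.13, −0.32 and −0.44, had the same order of signs as those of *Myh11*, the heavy chain it binds.

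Largest in mean difference among these partners were *Vim*, given above, and *Fhl1* (−0.41), *Parva* (−0.35) and *Synpo2* (−0.34). *Fhl1* codes for a LIM domain protein of muscle, *Parva* for the adhesion protein alpha-parvin and *Synpo2* for an actin-bundling protein. *Synpo2* read 507.4 in the control pool and 356.6, 496.4, 407.2 and 355.9, low at 5 and 30% CR and near the control at 10%.

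Of 28 listed genes that control contraction, 13 were measured, and limma called 0 in either fit. At an unadjusted p below 0.05 there was 1 against the control and 0 in the trend, beside 4.76 and 3.09% of all kept gene probes. The mean of the CR pools was above the control for 8 of the 13 genes and below for 5. Their medians were 0.12, 0.06, −0.005 and 0.06, of the members' sign at 10 and 20% CR and of the other at 5 and 30%, and the difference from the members was not tested. *Rock2*, a kinase that inhibits myosin phosphatase, read 119.7 in the control pool and 86.4, 85.4, 85.8 and 91.5. It was lower on all 4 CR arrays by nearly the same ratio (mean −0.46, SD 0.05, SE 0.19, adjusted p 0.988 in limma). *Gucy1b1*, a subunit of the receptor of nitric oxide (mean 0.58), *Pln*, the phospholamban that restrains the calcium pump (0.53), and *Ppp1cb*, the catalytic subunit of myosin phosphatase (0.18), were the others of this list with the largest differences.

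Regulators of the smooth muscle program numbered 13, of which 10 were measured and 0 called by limma in either fit (0 at an unadjusted p below 0.05), with 4 above and 6 below the control. *Srf* itself read 259.6 in the control pool and 188.4, 215.8, 238.3 and 232.9, lower on all 4 CR arrays (ratios −0.46, −0.27, −0.12 and −0.16, mean −0.25, SE 0.18). Its highest CR signal was thus at 20% and not at 10% CR, unlike that of most members. *Tgfb1i1*, a coactivator of smooth muscle genes, was the only one of the 10 with the signs of the common course (−0.60, 0.14, −0.39 and −0.45). *Tgfb1* (0.58) and *Crip2* (0.29) had the other large means.

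**Figure D5:**
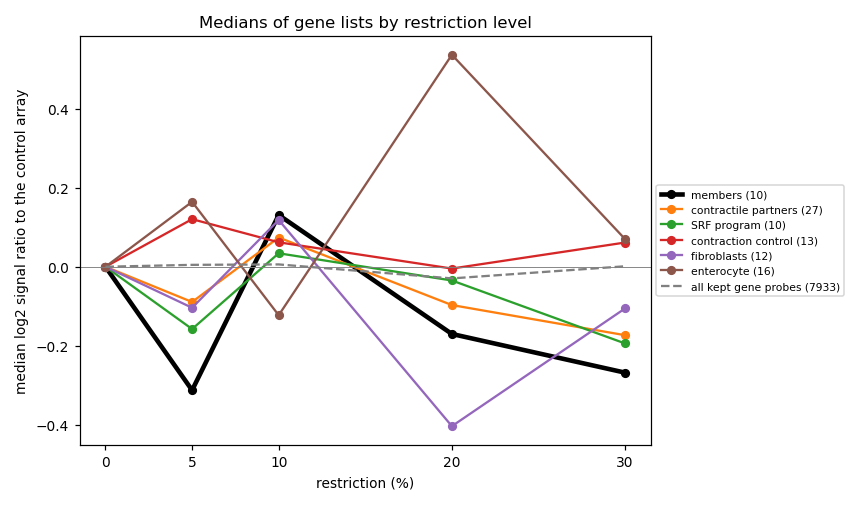
Median log2 ratio to the control array (vertical axis) against restriction in percent (horizontal axis) for the 10 members (thick black), for lists of contractile partners (27 measured genes), SRF program (10), contraction control (13), fibroblasts (12) and enterocyte markers (16), and for all kept gene probes (dashed). The partner list follows the members at a smaller size, and the enterocyte list has its highest median, 0.54, at 20% CR.

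Markers of other cells of the wall also differed between the arrays. The 16 measured of 20 listed enterocyte genes had medians of 0.16, −0.12, 0.54 and 0.07 at 5, 10, 20 and 30% CR. These medians were opposite in sign to the members at all 4 levels, but single genes were mixed. Below the control were 7, 10, 1 and 7 of the 16, beside 49.0, 48.8, 54.4 and 49.8% of all kept gene probes. The summed signal of the 16 was 19035 in the control pool and 21169, 20256, 28137 and 20931 at CR. For the 10 members it was 16017, 12823, 17098, 14620 and 13363. The enterocyte sum was highest at 20% CR, and the member sum was highest at 10%. The 3' to 5' ratio of beta-actin was highest at 20% CR too, but that of *Gapdh* was not. The part of the epithelial share in the member signals was not tested. The mean of the CR pools was above the control for 11 of the 16 enterocyte genes and below it for 5. The 4 with the largest means were *Fabp2* (1.03), *Apoa4* (0.59), *Slc15a1* (0.55) and *Slc5a1* (0.51), which serve the uptake of fat, peptides and sugar. Among the 5 below were *Treh* (−0.33) and *Anpep* (−0.15).

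Fibroblast genes, all 12 measured, had medians of −0.10, 0.12, −0.40 and −0.11. Their summed signal was 5302 in the control pool and 4820, 5705, 4214 and 4672 at CR. It was highest at 10% CR, as were the sums of the members, partners, SRF program, neuronal and glial, lymphocyte and adipose genes. The sums of the enterocyte, contraction control, endothelial and striated muscle genes were not. A sum mostly follows its brightest genes, such as *Cd74* among lymphocyte genes (4205.2 in the control pool) and *Myh1* among striated muscle genes (1283.9). The mean of the CR pools was above the control for 3 of the 12 fibroblast genes, among them *Dcn* (0.24), and below it for 9. *Col1a2* (mean −0.50), *Col3a1* (−0.40), *Pdgfra* (−0.38) and *Thy1* (−0.34) had the largest differences, and smooth muscle cells also make these collagens. Endothelial and pericyte genes, 4 of 12 measured, summed to 492 in the control pool and 388 to 463 at CR, with *Mcam* (−0.69) and *Eng* (−0.30) lowest. *Gja1*, the single measured gene of the Cajal list, gave −0.19, 0.22, −0.22 and −0.17. Neuronal and glial genes (4 of 16 measured) summed to 308 in the control pool and 300 to 374 at CR. The 3 measured genes of striated muscle summed to 1499 in the control pool and 1471 to 1765 at CR, with *Acta1* lower at all 4 levels (mean −0.56). Lymphocyte genes (4 of 10 measured) summed to 5396 in the control pool and 5019 to 6171 at CR, and their median ratios were 0.36, 0.39, 0.20 and 0.23. Adipose genes (2 of 7) summed to 204 and 217 to 297. Of 9 genes of the exocrine pancreas only *Cela1* was kept, at 214.5 and 149.5 to 245.8. The other 8 lay under the filter on the mean signal but were brightest in the control pool, as with *Prss1*, a trypsinogen (174.3 in the control pool and 71.2, 2.4, 24.9 and 18.5 at 5, 10, 20 and 30% CR), and *Cela2a*, an elastase (119.2 and then 29.4, 9.6, 15.0 and 6.4). Of 4 mesothelial genes, 0 were measured. No gene of any cell type list was called by limma in either fit. At an unadjusted p below 0.05 the comparison of CR pools with the control held 2 of 16 enterocyte, 1 of 4 endothelial, 1 of 3 striated muscle and 1 of 2 adipose genes. Of all kept gene probes, 4.76% had such a p in that comparison. In the trend it was 4 of 12 fibroblast, 1 of 16 enterocyte and 1 of 4 endothelial genes, beside 3.09% of all kept gene probes. The part of these cells in the member signals was not tested.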

How the data were processed

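Small intestine RNA of 5 pools of 5 rats was read on 1 Affymetrix rat 230A array each. The deposited intensities are MAS5 signals that the authors computed with the GeneChip Operating Software (MAS5 5.0), which subtracts mismatch signal, and scaled to 1 trimmed mean per array. No source used here names the scaling target. Weak signals therefore vary widely, and differences in total RNA are scaled away. The number of arrays limits the precision.

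Values under 0.1 were set to 0.1 before taking log2. The tests left out 57 array controls. A gene probe was kept if its mean log2 signal reached the median of all gene probes (7933 of 15866). Names came from the array annotation (12783 gene probes with 1 name, 312 with several, 2771 with none), and gene probes with several names stood for no gene. For 1 value per gene the brightest gene probe was used.

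limma 3.58.1 in R 4.3.3 (lmFit, eBayes with intensity trend, two-sided, Benjamini-Hochberg over all kept gene probes, threshold 0.05) compared the 4 CR pools with the control pool, which was assumed to vary like them, and fitted a linear trend over the percent. Differences between CR levels count as residual spread. The script was tested on simulated data. Ratios by level have no test, as each rests on 1 array.

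The members and gene lists were chosen with earlier results of these data known. All 10 members are named, with up to 4 genes of each list with the largest mean difference and the 8 genes nearest the members' course. Relatives or partners (*Myh9*, *Actg1*, *Cnn2*, *Cnn3*, *Tpm3*, *Tpm4*, *Myl9*, *Kit*, *Mb*, *Myh7*, *Prss1*, *Cela2a* and the genes with the members' signs) were named after their values were seen. The lists were contractile partners, contraction control, the SRF program, enterocytes, interstitial cells of Cajal, enteric neurons and glia, fibroblasts, endothelium and pericytes, striated muscle, mesothelium, exocrine pancreas, lymphocytes and adipose. Promoter windows came from RefSeq (GRCr8). Alternatives were other scalings, an added constant, other filters, the rank in place of the percent, variance priors without the trend or made robust, other size thresholds, the mean over gene probes or members, and each pool left out. Other tissues were not analysed here.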

Additional observations from a re-analysis of the deposited data

How the results depend on the processing

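No paired analysis was possible because each pool came from different rats on a single diet. limma called 0 member gene probes in both fits under every alternative run, with a smallest member adjusted p of 0.347 to 1.000 for the CR pools against the control and 0.441 to 1.000 for the trend. The count at an unadjusted p below 0.05, 1 in both fits, ran from 1 to 4 when a pool was left out of the comparison (4 without the 10% pool) and from 0 to 4 in the trend (4 without the 5% pool, 0 without the control pool). It stayed at 1 under all other settings. Gene probes lower by at least 0.5 at 30% CR numbered 6 without a filter in place of 3, and those lower by at least 1 numbered 1, 0, 1 and 1 at 5, 10, 20 and 30% CR. Lower by at least 0.5 at every remaining level were 1 to 2 when a pool was left out (2 without the 10% pool, the second being *Des*). These size counts have no share of all gene probes beside them and are a description only. The member median kept its sign at each level, within −0.35 to −0.28 at 5% CR, 0.07 to 0.14 at 10%, −0.28 to −0.11 at 20% and −0.29 to −0.25 at 30%, also without *Cald1* or without *Cald1* and *Des*, which was added after seeing the data. *Cald1* 1368824_at lay between −1.12 and −0.91. The gene probes that were not kept had signals where MAS5 ratios are erratic, and with 1 pool per level, a difference between levels has no replicate check. The cause of these changes was not tested.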
